A study of Mus musculus with 9 samples.

Results

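The genes described here are 9 regulators of mitochondrial biogenesis: Ppargc1a, Ppargc1b, Esrra, Nrf1, Tfam, Polg, Sirt1, Sirt3 and Sod2. They were found by matching every non-control array probe to a gene symbol through its RefSeq transcript, which gave 18 probes for the 9 genes among 56605 probes on the array, and all 9 genes were among the 16843 genes tested. None of the 9 differed between groups at the threshold used, an adjusted p under 0.05. Ppargc1a was lower on average in lungs with the cre transgene, at 70.0% of the control level after 9 months of tamoxifen and 68.1% after 3 months, with 95% confidence intervals of the log2 difference that included 0 in both. Tfam was lower in 9-month than in 3-month cre lungs, at 72.8%, on both of its probes (adjusted p = 0.063 for the probe used).

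Ppargc1a and Ppargc1b encode PGC-1alpha and PGC-1beta, coactivators that bind transcription factors and raise the output of nuclear genes for mitochondrial proteins. Among the factors they serve are ERRalpha, the orphan nuclear receptor encoded by Esrra, and NRF1, nuclear respiratory factor 1, a different protein from the stress factor encoded by Nfe2l1 that shares the abbreviation. NRF1 and the ETS factor GABP act on genes such as Tfam, whose product packages and transcribes mitochondrial DNA, and Polg encodes the catalytic subunit of the polymerase that copies it. Sirt1 and Sirt3 encode NAD-dependent deacetylases, of which SIRT1 acts on PGC-1alpha in the nucleus and SIRT3 acts inside mitochondria on enzymes including SOD2, the superoxide dismutase of the matrix. In mice with eroded telomeres, p53 has been reported to repress both PGC-1 genes, which is the reason these genes were examined in lungs with a telomere lesion.

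RNA came from whole lungs of 9 mice, all homozygous for a floxed Terf1 allele (TRF1flox/flox) and all treated weekly with tamoxifen (250 mg/kg), beginning at the age of 8 weeks. Terf1 encodes TRF1, a protein of the telomere cap. The 9-month cre group (SPC-cre TRF1flox/flox, 9 months of tamoxifen, 11 months of age, n = 3) and the 3-month cre group (SPC-cre TRF1flox/flox, 3 months of tamoxifen, 5 months of age, n = 3) carried a cre under the surfactant protein C promoter, which is active in alveolar type 2 cells. The control group held littermates without cre (TRF1flox/flox, 9 months of tamoxifen, 11 months of age, n = 3). The 9-month comparison therefore had equal age and exposure, while in the 3-month comparison cre, age and length of tamoxifen differed together. The cre acts in cells that use this promoter, while RNA came from all cells of the lung, so that fewer cells of a type and less RNA per cell cannot be told apart.

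Each lung was read on a one-colour Agilent array, and every level below is a log2 signal relative to the 75th percentile of that array, so that 0 is the 75th percentile. That percentile was 958 to 1430 intensity units over the 9 arrays, with a median local background of 28 to 35 units. Lung was the tissue measured, as 10 of 10 lung identity markers were well above background on all 9 arrays. The controls and 3-month cre replicate 1 were on slide 1, and the other 5 arrays on slide 2. All 3 controls read as male from Xist and Y-linked probes, and each cre group read as 1 male and 2 females. Terf1 itself was at -0.41, -0.97 and -0.39 in 9-month cre lungs, at -0.58, -0.68 and -0.62 in 3-month cre lungs and at -0.37, -0.05 and 0.20 in controls, and was not called in either comparison with controls (adjusted p = 0.13 and 0.19).

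Promoters are shown for the 3 regulators with the largest mean difference in any comparison, Ppargc1a, Tfam and Polg, because cAMP-response and ETS motifs are the textbook entry points to this network. Each is 300 bases of GRCm38.p6, from 250 before to 50 after an annotated RefSeq start, 5′ to 3′ along the gene. Capitals mark the motif found. The 3 windows lie inside the gene spans given below, so the starts used are not the outer ends of those spans.
Ppargc1a (chr5:51567676-51567975, minus strand): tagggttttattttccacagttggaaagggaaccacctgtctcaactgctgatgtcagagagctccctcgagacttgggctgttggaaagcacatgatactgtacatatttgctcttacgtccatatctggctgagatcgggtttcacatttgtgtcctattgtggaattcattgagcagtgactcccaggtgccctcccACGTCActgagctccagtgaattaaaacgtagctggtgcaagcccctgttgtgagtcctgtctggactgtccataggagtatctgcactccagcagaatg
Tfam (chr10:71237995-71238294, minus strand): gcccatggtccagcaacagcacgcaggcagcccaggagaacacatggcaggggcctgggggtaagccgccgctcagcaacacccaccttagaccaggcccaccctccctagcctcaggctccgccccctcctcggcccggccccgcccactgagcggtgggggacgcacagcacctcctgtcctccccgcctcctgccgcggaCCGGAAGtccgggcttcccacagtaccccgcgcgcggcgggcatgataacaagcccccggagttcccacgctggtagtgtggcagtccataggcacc
Polg (chr7:79466224-79466523, minus strand): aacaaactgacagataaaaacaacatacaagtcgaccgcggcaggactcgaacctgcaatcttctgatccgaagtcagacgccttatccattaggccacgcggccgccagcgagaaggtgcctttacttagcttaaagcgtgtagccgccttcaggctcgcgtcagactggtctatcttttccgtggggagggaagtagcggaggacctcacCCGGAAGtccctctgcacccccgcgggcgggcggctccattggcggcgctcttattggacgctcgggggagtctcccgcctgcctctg
The short cAMP-response motif TGACGT, searched on both strands, was found once in the Ppargc1a window, on the minus strand. It begins at position -50 relative to the start used, and 7.51% of 32851 mouse promoters of the same length hold it. The full motif TGACGTCA, which overlaps it and is held by 1.79%, was not in the window. The ETS motif CCGGAAG, present in 8.86% of promoters, was found on the plus strand of Tfam at position -47 and of Polg at -38. It was also on the minus strand of a Sirt3 window, at -85 from the start used there. Of the 9 regulators, 8 had a promoter in the table. The short NRF1 motif GCGCATG, held by 3.91%, was found in Esrra alone among them, and the full NRF1 palindrome, which overlaps it (0.971%), and the ERR motif AAGGTCA (4.72%) in none of the 10 windows.

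On GRCm38.p6, Ppargc1a lies on chromosome 5 (51454249 to 52115853), Ppargc1b on chromosome 18 (61291445 to 61400756), Esrra on chromosome 19 (6910977 to 6922048) and Nrf1 on chromosome 6 (30047985 to 30153458). Tfam and Sirt1 lie on chromosome 10 (71225468 to 71238328 and 63319005 to 63339035), Polg and Sirt3 on chromosome 7 (79446231 to 79467911 and 140863663 to 140882309) and Sod2 on chromosome 17 (13007839 to 13018119). The probes are directed at spliced transcripts of these genes, and where in the transcript each binds is not known here. Of the 18 probes, 17 passed the filter, being well above background on all 9 arrays. The remaining one, 1 of 4 for Nrf1, was well above background on 0 of 9 arrays and was left out. For a gene with several probes the brightest on average over the 9 arrays was used, and signals of these 9 probes ran from 447 to 11072 intensity units.

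Setting 9-month cre lungs against controls asked whether the network was lower at the late stage, at equal age. Counts here are for the probe used for each gene. In limma 0 of 9 regulators were called and 0 had an unadjusted p under 0.05, against 6.45% of all 16843 genes called and 27.3% at an unadjusted p under 0.05. Levels were lower than in controls for 6 genes and higher for 3, and the arrays of the groups overlapped for all 9, where 32.5% of all genes had no overlap. Some other probes of Ppargc1a, Nrf1 and Polg, given below, did not overlap at 9 months. Among these, unadjusted p in limma was 0.015 for the second Ppargc1a probe and 0.036 for an Nrf1 probe. The members' median log2 difference was -0.01, against a median of 0.02 over all genes tested. In 3-month cre lungs against controls 0 of 9 were called (0.451% of all genes) and 1 had an unadjusted p under 0.05, Tfam (18.7% of all genes). There 7 genes were lower and 2 higher, with a median of -0.11 against 0.05 over all genes, and 4 of 9 had arrays without overlap, where 31.0% of all genes had none. Between 9-month and 3-month cre lungs 0 of 9 were called (4.99% of all genes), 1 had an unadjusted p under 0.05 (28.7% of all genes) and 1 had no overlap (33.6%), in both cases Tfam. The 2 comparisons with controls share the control arrays.

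**Figure D1:**
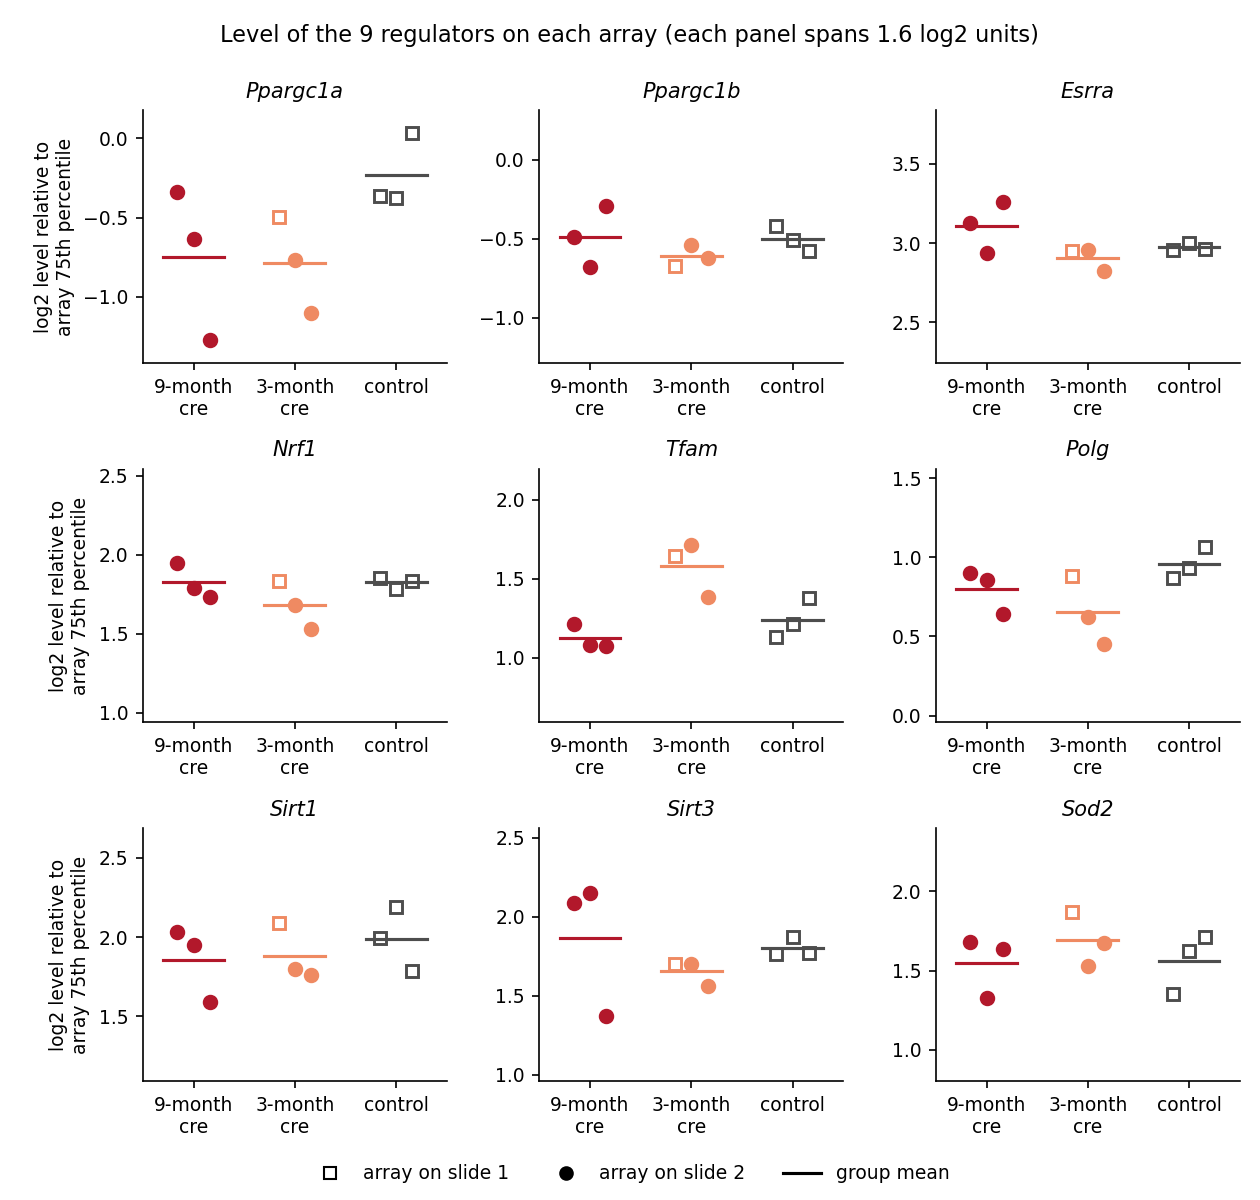
Level of each regulator on each array, as log2 signal relative to the array's 75th percentile, by group, with squares for slide 1, circles for slide 2 and a line at the group mean (n = 3). The controls lie together for Esrra, Nrf1 and Sirt3, 3-month cre lungs are high for Tfam, and 9-month cre replicate 3 is low for Ppargc1a and Sirt3.

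Among the coactivators, Ppargc1a stood at -0.34, -0.64 and -1.28 in 9-month cre lungs, at -0.50, -0.77 and -1.10 in 3-month cre lungs and at -0.36, -0.37 and 0.04 in control lungs. All 3-month cre arrays lay below all controls, and 9-month cre replicate 1 lay among the controls. The mean level was -0.75 ± 0.48 (SD, n = 3) in 9-month cre lungs, -0.79 ± 0.30 in 3-month cre lungs and -0.23 ± 0.23 in controls. The difference from controls was -0.52 ± 0.26 (SE) at 9 months, with a 95% confidence interval of -1.11 to 0.08 and an adjusted p of 0.232. At 3 months it was -0.56 ± 0.26 (interval -1.15 to 0.04, adjusted p = 0.288). These intervals run from beyond a halving, which is -1 on this scale, to just above no change. The cre groups were 0.04 ± 0.26 apart (adjusted p = 0.936).

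The other Ppargc1a probe gave the same direction in both comparisons with controls. Its levels were -3.48, -3.72 and -4.23 in 9-month cre lungs, against -2.84, -3.60 and -3.95 in 3-month cre lungs and -3.01, -3.05 and -2.66 in controls. On this probe every 9-month cre array lay below every control, by -0.90 ± 0.30 (adjusted p = 0.118 over all probes kept), and 3-month cre replicate 1 lay among the controls, with a difference of -0.56 ± 0.30 (adjusted p = 0.299). The probes thus placed different arrays of the cre groups among the controls.

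Ppargc1b, the partner coactivator, stood at -0.49, -0.68 and -0.29 in 9-month cre lungs, at -0.67, -0.54 and -0.62 in 3-month cre lungs and at -0.42, -0.51 and -0.58 in controls. Its groups overlapped throughout. The difference from controls was 0.01 ± 0.12 at 9 months (interval -0.26 to 0.29, adjusted p = 0.949) and -0.11 ± 0.12 at 3 months (interval -0.39 to 0.17, adjusted p = 0.651). Neither interval reached a change as large as the mean difference of Ppargc1a. Whether the coactivators differed from each other in response was not tested. The second Ppargc1b probe was at -0.08 ± 0.18 and 0.11 ± 0.18 in these comparisons, each on the other side of 0 from the first.

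Of the transcription factors, Esrra stood at 3.13, 2.94 and 3.26 in 9-month cre lungs, at 2.95, 2.95 and 2.82 in 3-month cre lungs and at 2.95, 3.00 and 2.96 in controls. The control arrays were close together, with an SD of 0.03, and 9-month cre replicates 1 and 3 stood above them. The difference from controls was 0.14 ± 0.11 at 9 months (interval -0.11 to 0.38, adjusted p = 0.442) and -0.06 ± 0.11 at 3 months (adjusted p = 0.786). Although the 3-month cre arrays did not overlap the controls, the groups were separated by less than the SE of their difference. The cre groups differed by 0.20 ± 0.11 (adjusted p = 0.264).

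Nrf1 stood at 1.95, 1.79 and 1.73 in 9-month cre lungs, at 1.83, 1.68 and 1.53 in 3-month cre lungs and at 1.85, 1.79 and 1.84 in controls. The difference from controls was -0.00 ± 0.11 at 9 months (interval -0.26 to 0.26, adjusted p = 0.998) and -0.14 ± 0.11 at 3 months (adjusted p = 0.518). Its other detected probes, which match other transcript variants, stood further from 0 at 9 months. One was at -0.32 ± 0.15 (adjusted p = 0.218) with levels of 0.26, 0.16 and -0.05 in 9-month cre lungs and 0.49, 0.41 and 0.44 in controls. The other was at -0.29 ± 0.12 (adjusted p = 0.177), with every 9-month cre array below every control on both probes. At 3 months the first of these probes was at -0.37 ± 0.15 (adjusted p = 0.182 in limma), with every 3-month cre array below every control. The second was at -0.13 ± 0.12 (adjusted p = 0.538), with overlap. Neither was called in either comparison, and the value for Nrf1 differed in size between its probes.

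Tfam, the packaging factor of mitochondrial DNA, stood at 1.22, 1.08 and 1.07 in 9-month cre lungs, at 1.64, 1.71 and 1.38 in 3-month cre lungs and at 1.13, 1.22 and 1.38 in controls. The 3-month cre lungs were the highest of the groups, with a mean of 1.58 ± 0.17 (SD, n = 3), followed by controls at 1.24 ± 0.13 and 9-month cre lungs at 1.12 ± 0.08, and the arrays of these last groups overlapped. The difference between 9-month and 3-month cre lungs was -0.46 ± 0.12 (interval -0.74 to -0.18, adjusted p = 0.063 in limma). Against controls it was 0.34 ± 0.12 at 3 months (interval 0.06 to 0.62, adjusted p = 0.202) and -0.12 ± 0.12 at 9 months (adjusted p = 0.554).

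The second Tfam probe kept the same order. Its levels were 0.15, -0.01 and 0.18 in 9-month cre lungs, against 0.79, 0.78 and 0.47 in 3-month cre lungs and 0.15, 0.27 and 0.54 in controls. The cre groups did not overlap on it and differed by -0.57 ± 0.15 (adjusted p = 0.057 over all probes kept). On slide 2 alone, which held 3 arrays of the 9-month and 2 of the 3-month cre group, the difference of the first probe was -0.43 ± 0.16 (adjusted p = 0.270). A fit with slide as a block also gave -0.43 (adjusted p = 0.172), and one with animal sex as a covariate -0.46 (adjusted p = 0.078). Age differed with the length of tamoxifen here, and their parts cannot be told apart.

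Polg stood at 0.90, 0.86 and 0.64 in 9-month cre lungs, at 0.88, 0.62 and 0.45 in 3-month cre lungs and at 0.87, 0.94 and 1.07 in controls. The cre arrays reached lower than the controls, and both cre groups overlapped them. The difference from controls was -0.16 ± 0.14 at 9 months (interval -0.47 to 0.16, adjusted p = 0.483) and -0.30 ± 0.14 at 3 months (interval -0.62 to 0.01, adjusted p = 0.279). The other Polg probes were nearer 0 at 3 months, at 0.02 ± 0.12 and -0.06 ± 0.12, so the lower value at 3 months rested on 1 of 3 probes. At 9 months they were at 0.05 ± 0.12 and -0.21 ± 0.12. On the latter probe every 9-month cre array lay below every control, and neither probe was called.

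The deacetylase gene Sirt1 stood at 2.03, 1.95 and 1.59 in 9-month cre lungs, at 2.09, 1.80 and 1.76 in 3-month cre lungs and at 1.99, 2.19 and 1.78 in controls. The groups overlapped, with differences from controls of -0.13 ± 0.17 at 9 months (interval -0.51 to 0.25, adjusted p = 0.629) and -0.11 ± 0.17 at 3 months (adjusted p = 0.764). Its second probe was at -0.25 ± 0.18 and -0.29 ± 0.18. Sirt3 was widely scattered in 9-month cre lungs, at 2.08, 2.15 and 1.37, against 1.70, 1.70 and 1.56 in 3-month cre lungs and 1.76, 1.87 and 1.77 in controls. Replicates 1 and 2 of the 9-month cre group lay above all controls and replicate 3 below them. The difference was 0.07 ± 0.20 at 9 months (interval -0.38 to 0.51, adjusted p = 0.849) and -0.15 ± 0.20 at 3 months (adjusted p = 0.713). Between the cre groups it was 0.21 ± 0.20 (adjusted p = 0.504), and without 9-month cre replicate 3 it became 0.46 and was called (adjusted p = 0.044). That was the 1 call of a regulator under any processing tried.

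Sod2, the mitochondrial superoxide dismutase, stood at 1.68, 1.33 and 1.64 in 9-month cre lungs, at 1.87, 1.53 and 1.68 in 3-month cre lungs and at 1.35, 1.63 and 1.71 in controls. No group stood apart. The difference from controls was -0.01 ± 0.15 at 9 months (interval -0.36 to 0.34, adjusted p = 0.966) and 0.13 ± 0.15 at 3 months (interval -0.22 to 0.48, adjusted p = 0.669).

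**Figure D2:**
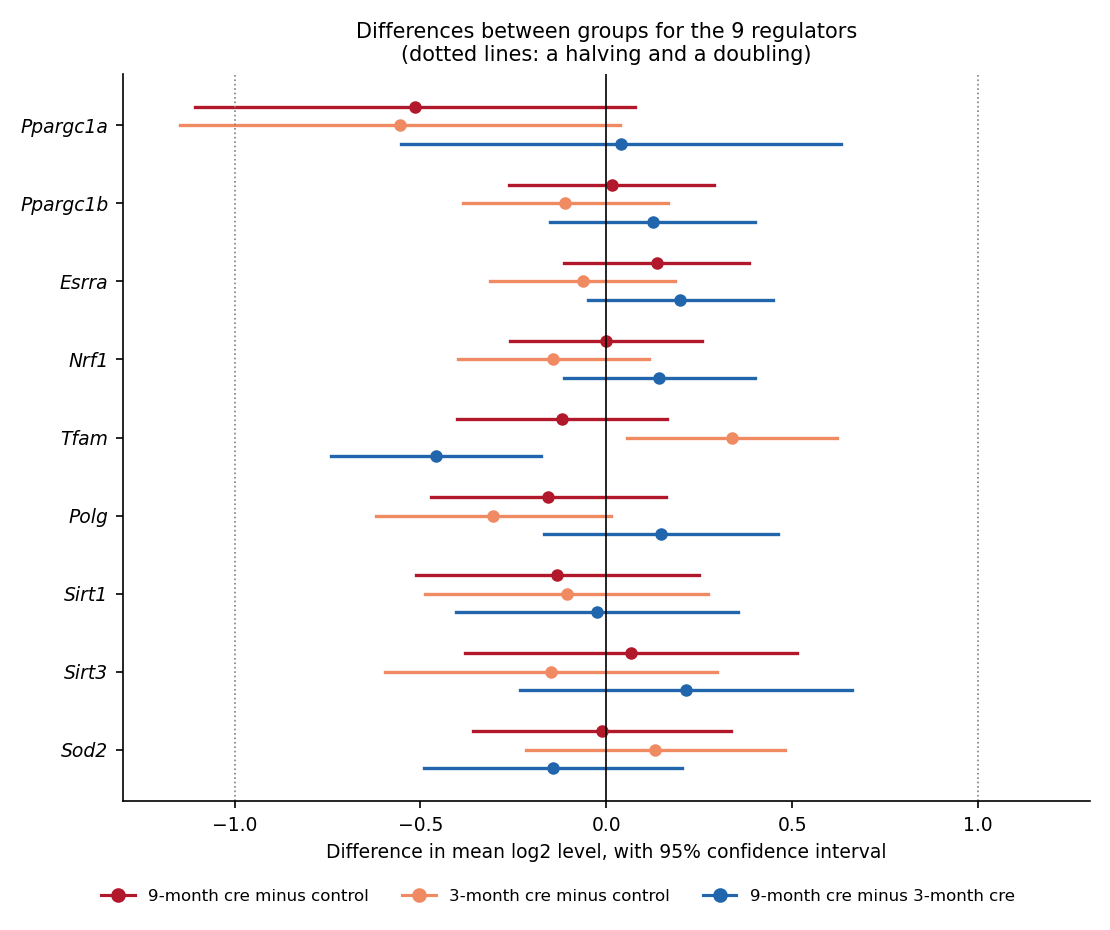
Difference in mean log2 level for each regulator in the 3 comparisons, with 95% confidence intervals from limma and dotted lines at a halving and a doubling. The intervals of Ppargc1a are the widest and are the only ones to reach a halving, and those of Tfam leave 0 in the comparisons that involve 3-month cre lungs, before adjustment for the number of genes.

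**Figure D3:**
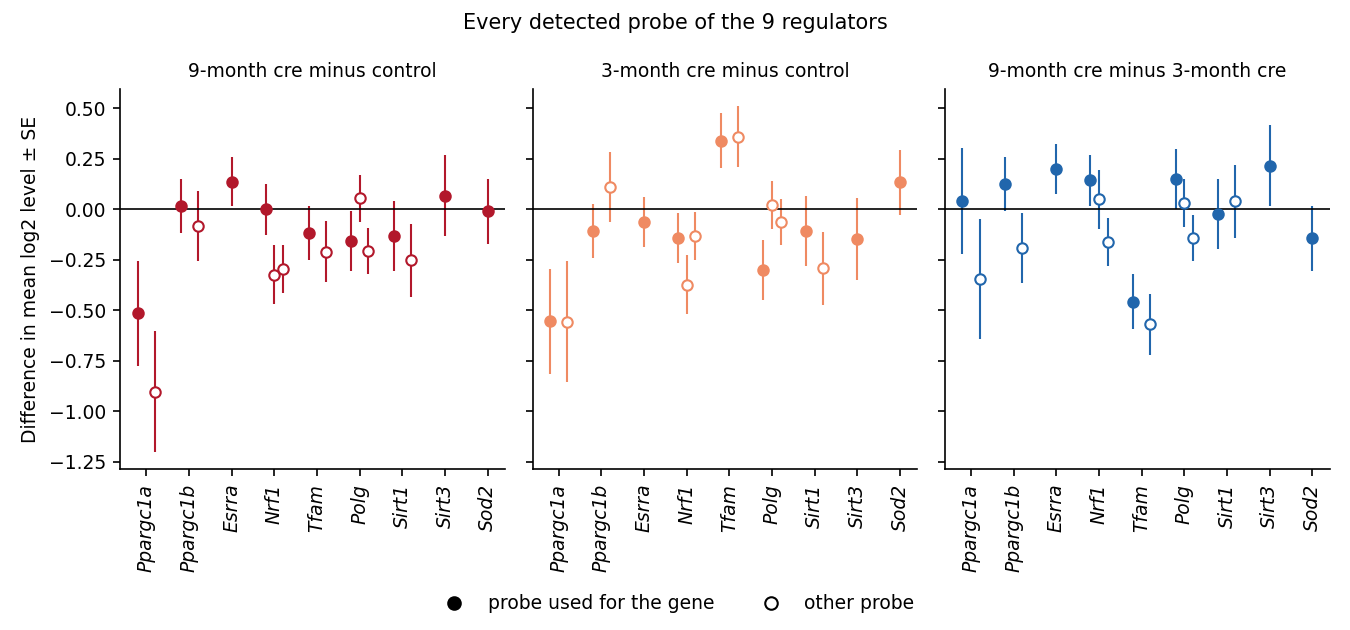
Difference in mean log2 level with its SE for each of the 17 detected probes, in each comparison, with filled circles for the probe used and open circles for the others. Both probes of Ppargc1a are below 0 against controls and both probes of Tfam are below 0 between the cre groups. Against controls the probes of Nrf1 disagree in size and those of Polg in size and sign.

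Over all detected probes, 13 of 17 were lower than in controls in 9-month cre lungs and 12 of 17 in 3-month cre lungs. Probes of the same gene are counted separately here and are not independent. Of all genes tested, 52.8% and 57.6% were higher than in controls in these comparisons. Several genes were low on the same arrays. Replicate 3 of the 9-month cre group was the lowest of its group for 6 of 9 regulators (Ppargc1a, Nrf1, Tfam, Polg, Sirt1 and Sirt3) and the highest for Ppargc1b and Esrra. Replicate 3 of the 3-month cre group was the lowest of its group for 7 of 9, all but Ppargc1b and Sod2. Without 9-month cre replicate 3 the Ppargc1a difference from controls at 9 months was -0.25, and without 9-month cre replicate 1 it was -0.72.

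Ppargc1a is abundant in heart muscle and brown fat, and transcripts of both tissues varied between these lungs. Of 15 heart muscle markers, 14 were well above background on all 9 arrays, and Nppb was so on 3 arrays of the 9-month cre group, 2 of the 3-month cre group and 1 of the controls. The log2 of their summed signal was 6.24 to 6.64 in 9-month cre lungs, 5.16 to 6.70 in 3-month cre lungs and 6.30 to 7.98 in controls. The sum was lowest in 3-month cre replicate 3, at 5.16, and highest in control replicates 2 and 3, at 7.50 and 7.98. The list's median difference from controls was -0.84 at 9 months, with 1 of 15 called (Myh7, lower), and -1.51 at 3 months, with 0 of 15 called in limma and 10 at an unadjusted p under 0.05. Over all genes, 6.45% and 0.451% were called in these comparisons, and 27.3% and 18.7% had an unadjusted p under 0.05. At 9 months 12 of 15 differences were negative, and those of Nppa, Nppb and Myl2 were positive. Fat markers summed to 2.80 to 3.97 in 9-month cre lungs, 3.08 to 4.31 in 3-month cre lungs and 3.33 to 5.10 in controls, with 0 of 10 called in either comparison with controls (1 and 2 at an unadjusted p under 0.05). Ucp1, which defines brown fat, stood at 0.72 in 9-month cre replicate 2 and 0.38 in control replicate 2, and at -3.18 or less elsewhere.

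Without control replicates 2 and 3 the Ppargc1a difference was -0.38 ± 0.39 at 9 months and -0.42 ± 0.39 at 3 months, resting on 1 control. The slide also moved it. With the slide as a block it was -0.08 at 9 months (adjusted p = 0.993), where no slide held both groups, and -0.26 at 3 months, the same as within slide 1, where 1 cre array met 3 controls. With sex as a covariate it was -0.30 and -0.34. The part of muscle, fat, slide or sex in the Ppargc1a values was not tested.

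**Figure D4:**
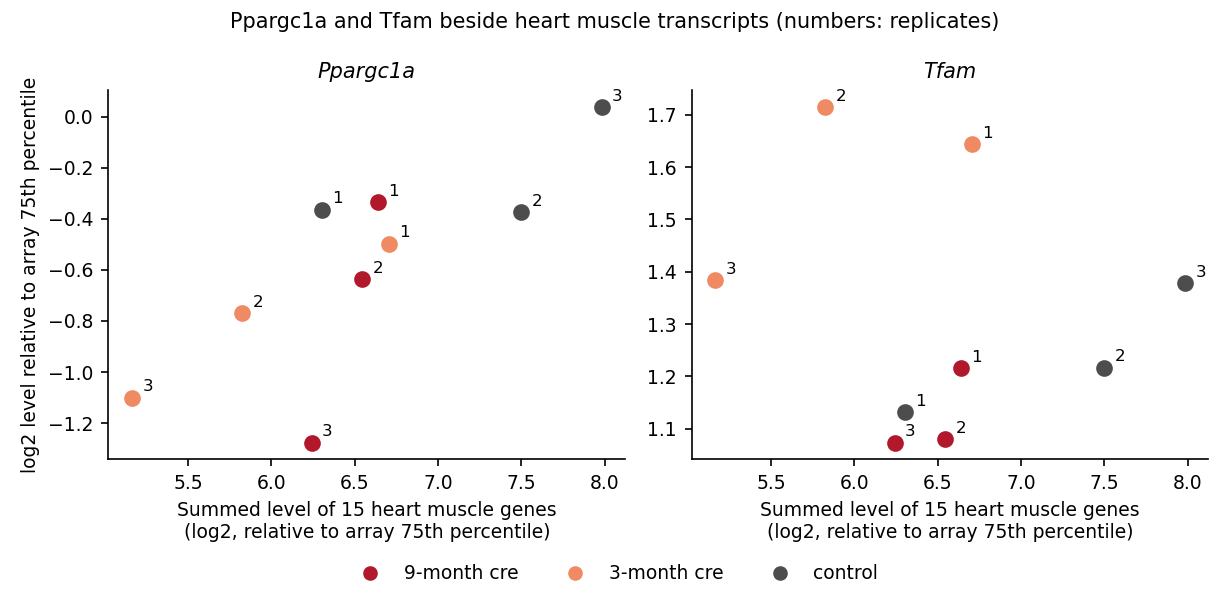
Level of Ppargc1a (left) and Tfam (right) on each array against the log2 of the summed signal of 15 heart muscle genes, coloured by group and numbered by replicate. Ppargc1a is highest on the array with the most heart muscle signal, control replicate 3 at 7.98. It is low on the one with the least, 3-month cre replicate 3 at 5.16, and Tfam is at 1.38 on both of these arrays. Ppargc1a is lowest, at -1.28, on 9-month cre replicate 3, where the heart muscle signal is 6.24. Control replicates 1 and 2 are at -0.36 and -0.37 with heart muscle signals of 6.30 and 7.50.

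The wider pathway was read from 9 lists with 292 genes tested, none of them a regulator above. In 9-month cre lungs 9 of these genes were called, 3.08% against 6.45% of all genes, and 60 had an unadjusted p under 0.05, 20.5% against 27.3%. In 3-month cre lungs 2 were called (0.685% against 0.451%), and between the cre groups 7 were called (2.40% against 4.99%). At an unadjusted p under 0.05 in limma there were 36 at 3 months (12.3% against 18.7%) and 73 between the cre groups (25.0% against 28.7%). These shares of all genes are the background for the counts of each list below. These lists were drawn up with earlier results of the same arrays in view, and counts are descriptions.

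Partners and upstream regulators of PGC-1 gave 0 of 42 called in either comparison with controls in limma, with 5 and 4 at an unadjusted p under 0.05 and medians of -0.03 and -0.04. Perm1, a PGC-1 and ERR induced regulator of muscle, was at -0.94 ± 0.52 at 9 months and -1.28 ± 0.52 at 3 months (adjusted p = 0.272 and 0.237). Its control levels of -3.90, -2.76 and -1.66 followed the heart muscle signal. Prkaa2, a catalytic subunit of AMP-activated kinase, was at 0.17, 0.41 and -0.02 in 9-month cre lungs and at 0.59, 0.90 and 0.79 in controls, a difference of -0.57 ± 0.15 without overlap (adjusted p = 0.054), while a second probe was at -0.27 ± 0.16. Esrrb, a relative of Esrra, was at -0.99 ± 0.38 at 3 months (adjusted p = 0.214). Between the cre groups Mef2d, a muscle transcription factor, fell by 0.61 ± 0.13 (adjusted p = 0.043), and its second probe was at 0.32 ± 0.18.

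Genes that maintain and transcribe mitochondrial DNA gave 1 of 29 called at 9 months, with a median of 0.07. Dna2, a nuclease and helicase of nuclear and mitochondrial DNA, rose by 0.84 ± 0.19 (adjusted p = 0.040), at -0.06, -0.21 and 0.09 in 9-month cre lungs against -0.92, -0.62 and -1.18 in controls. At 3 months 0 of 29 were called in limma (2 at an unadjusted p under 0.05, median -0.04). Between the cre groups 0 were called (8 at an unadjusted p under 0.05, median 0.02). There Tefm, the elongation factor of mitochondrial transcription, was at -0.61 ± 0.16 (adjusted p = 0.062) and Slc25a33, a pyrimidine nucleotide carrier, at -0.55 ± 0.14 (adjusted p = 0.056), the same direction as Tfam.

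Antioxidant enzymes gave 1 of 19 called at 9 months (median -0.01), 0 at 3 months in limma (1 at an unadjusted p under 0.05, median 0.07) and 1 between the cre groups (median -0.17). Cat, the peroxisomal catalase, fell by 1.04 ± 0.21 against controls (adjusted p = 0.030). Its levels were 1.81, 2.67 and 2.41 in 9-month cre lungs, against 3.40, 3.24 and 3.41 in 3-month cre lungs and 3.30, 3.21 and 3.50 in controls. Cat also fell by 1.06 ± 0.21 against 3-month cre lungs (adjusted p = 0.037). Gpx1, a glutathione peroxidase, was at 0.55 ± 0.16 at 3 months (adjusted p = 0.139).

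Sirtuins and NAD synthesis genes other than the members gave 2 of 20 called at 9 months, 1 at 3 months and 0 between the cre groups in limma (6 at an unadjusted p under 0.05), with medians of -0.11, -0.01 and -0.11. Bst1, an enzyme that makes cyclic ADP-ribose from NAD and is present on myeloid cells, stood at 1.91, 2.12 and 1.79 in 9-month cre lungs, at 2.17, 2.11 and 2.22 in 3-month cre lungs and at 0.99, 1.03 and 1.34 in controls. It rose by 0.82 ± 0.13 at 9 months (adjusted p = 0.019), and the 3-month rise was 1.04 ± 0.13 (adjusted p = 0.030). Nadk, the kinase that makes NADP, rose by 0.64 ± 0.13 at 9 months (adjusted p = 0.032). In the same lungs 4 of 13 neutrophil and 2 of 13 alveolar macrophage markers rose at 9 months, where 6.45% of all genes were called. Ngp, among these neutrophil calls, was well above background on 0 control arrays and passed the filter through the cre groups. Differences were positive for 13 of 13 neutrophil markers. Of the macrophage markers 9 were positive and 4 negative. Summed neutrophil levels were 7.65 to 8.90 in 9-month cre lungs, 7.80 to 8.24 in 3-month cre lungs and 6.86 to 7.82 in controls, and macrophage levels 7.77 to 8.36, 8.12 to 8.33 and 6.88 to 7.69 in the same order. Their part in the Bst1 values was not tested.

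Downstream of the regulators, 0 of 79 nuclear-encoded respiratory chain genes were called in limma at 9 months and at 3 months. There were 11 and 8 at an unadjusted p under 0.05, with medians of 0.07 and 0.14. Positive differences made up 53 of 79 at 9 months and 61 of 79 at 3 months. The members furthest from 0 were muscle forms. Cox7a1 was at -0.94 ± 0.41 at 9 months and -1.43 ± 0.41 at 3 months, and Cox6a2 at -0.79 ± 0.40 at 3 months, and control levels of both were highest in replicates 2 and 3. For 9-month against 3-month cre lungs the median of the list was -0.03. The 13 genes of the mitochondrial genome, which TFAM and POLG serve directly, had 0 matches and were not analysed here.

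Citric acid cycle and fatty acid oxidation genes gave 0 of 32 called in limma in either comparison with controls (5 and 2 at an unadjusted p under 0.05), with medians of -0.18 and 0.01. At 9 months 25 of 32 were negative, with Hadha, a subunit of the trifunctional protein, at -0.67 ± 0.23 (adjusted p = 0.110). Slc25a20, the carnitine carrier, was at -0.71 ± 0.41. At 3 months Cpt1b, the muscle carnitine transferase, was at -1.40 ± 0.31 (adjusted p = 0.099) and Hadh at -0.53 ± 0.16. Between the cre groups Suclg2, a succinate ligase subunit, fell by 0.87 ± 0.20 (adjusted p = 0.048), with other probes at -1.20 ± 0.30 and 0.44 ± 0.20.

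Import and ribosome genes of mitochondria gave 0 of 32 called in limma against controls at 9 months (6 at an unadjusted p under 0.05, median 0.03) and at 3 months (7, median 0.16). Slc25a5, an ADP/ATP carrier, was at 0.67 ± 0.21 and Grpel1, an import co-chaperone, at 0.45 ± 0.19 at 3 months. Slc25a4 was at -0.34 ± 0.19 at 9 months. Between the cre groups Tomm70a, an import receptor, fell by 0.76 ± 0.18 (adjusted p = 0.0499), with 23 of 32 genes negative and a median of -0.13. Fusion, fission and mitophagy genes gave 0 of 18 called in limma in any comparison (2, 3 and 4 at an unadjusted p under 0.05). The medians were -0.13, 0.04 and -0.18. Fundc1, a mitophagy receptor, was at -0.61 ± 0.16 between the cre groups (adjusted p = 0.059) and Bnip3l, another receptor, at -0.38 ± 0.12. Mief2 was at -0.37 ± 0.13 at 9 months.

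**Figure D5:**
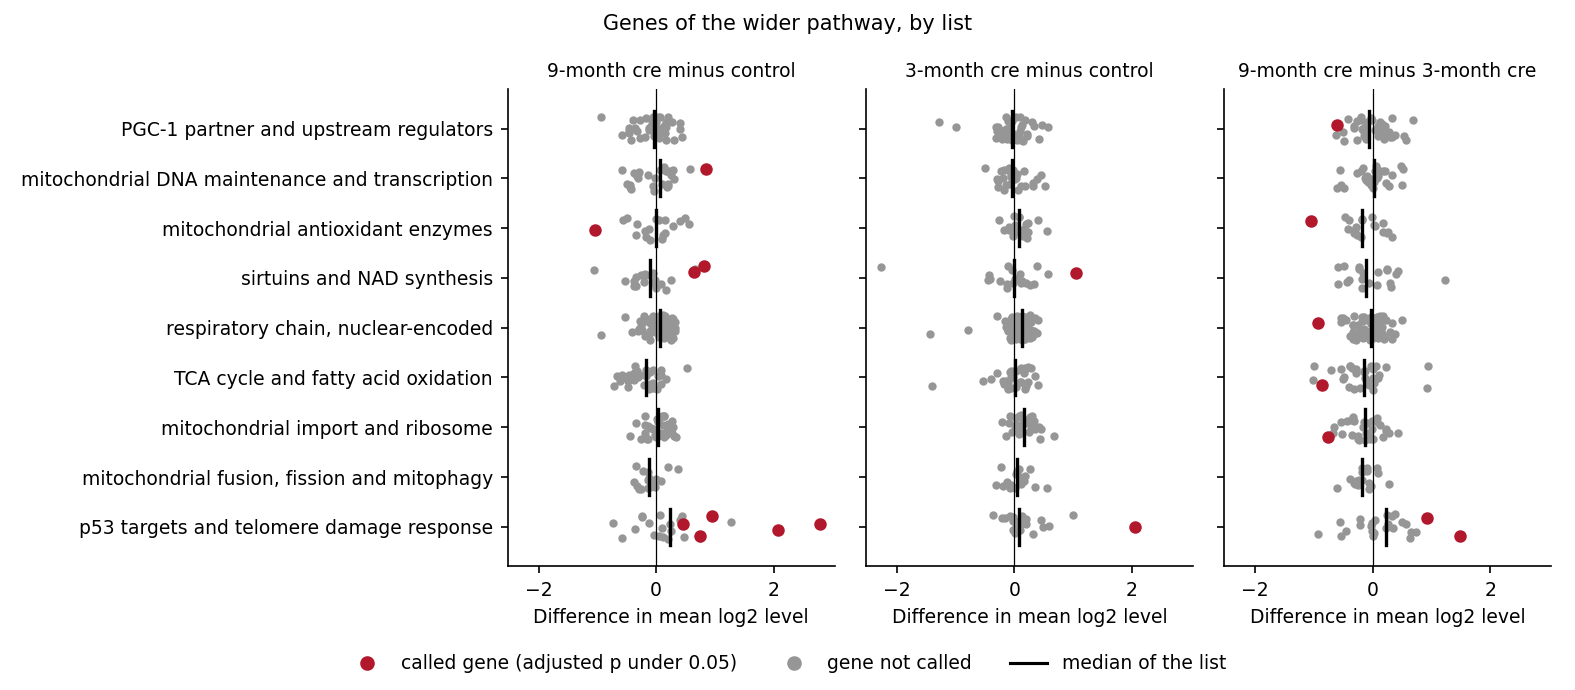
Difference in mean log2 level for every gene of the 9 pathway lists in the 3 comparisons, with called genes in red and a bar at the list median. Called genes are few in the mitochondrial lists and lie highest in the p53 list at 9 months, where Gdf15 is at 2.78.

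The p53 targets, read because p53 is the reported repressor of the PGC-1 genes, gave 5 of 25 called at 9 months. All 5 were higher, the list median was 0.24, and 6.45% of all genes were called. Gdf15, a stress-induced secreted factor, stood at 1.83, 0.70 and 1.56 in 9-month cre lungs, at 0.57, 0.36 and 0.96 in 3-month cre lungs and at -1.20, -1.49 and -1.57 in controls. It rose by 2.78 ± 0.29 at 9 months (adjusted p = 0.009). The 3-month rise was 2.05 ± 0.29 (adjusted p = 0.034), the 1 call among 25 in that comparison (0.451% of all genes, median 0.07). Cdkn1a, the cell cycle inhibitor p21, rose by 2.08 ± 0.32 at 9 months (adjusted p = 0.016), with its second probe at 0.80 ± 0.23. Fas, a receptor that triggers apoptosis, rose by 0.75 ± 0.18, with its second probe at 0.06 ± 0.29, and Pmaip1, which encodes the apoptosis promoter NOXA, by 0.95 ± 0.14. Cdkn1a and Pmaip1 were also higher in 9-month than in 3-month cre lungs, by 1.49 ± 0.32 and 0.93 ± 0.14. They were the 2 called of 25 (4.99% of all genes, median 0.22). Ppargc1a and Ppargc1b, in the same lungs, stood at -0.52 ± 0.26 and 0.01 ± 0.12 against controls at 9 months, neither called. No call of a list gene survived the slide as a block, which left 0 called among all genes.

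Across the 9 arrays the genes with the levels most like those of Ppargc1a were Peg12, Zscan18 and Rassf3 (Pearson r of 0.97, 0.96 and 0.95). For Tfam they were Thap12, Commd2 and Ttc30a2 (0.98, 0.98 and 0.97) and for Esrra Med15, Dok1 and Isg20l2 (0.97 each). For Polg they were Myh13, Smg6 and Pus3 (0.96, 0.96 and 0.95), and Smg6 was also among the nearest 3 of Nrf1 (0.91). These are the highest among all named genes tested, over 9 arrays that share groups, slides and sex, and are given as descriptions.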

How the data were processed

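Whole-lung RNA of 9 mice was labelled with Cy3 and hybridised to 1 one-colour Agilent array per lung. Each scanner file gives an intensity for every spot, from Agilent Feature Extraction 10.7.3.1, background-subtracted within the array by that software and not scaled between arrays, per the file headers. The authors also deposited 1 intensity per probe and array, brought to nearly the same distribution on every array by a tool not stated there. They served as an alternative.

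From the processed intensity, log2 values were taken, irregular spots left out, spots of a probe averaged and the 75th percentile of the array's probes subtracted. Probes that all arrays of some group showed well above background were kept (37647 of 56605), matched to symbols through RefSeq transcripts (GRCm38.p6), and reduced to the probe with the highest mean per gene. The 3 groups were fitted in 1 model with limma 3.58.1 under R 4.3.3 (6 residual degrees of freedom), with two-sided tests and Benjamini-Hochberg adjustment over 16843 genes, or over all kept probes where several probes of a gene are given. The threshold for a call was an adjusted p under 0.05, and the words rose and fell are kept for calls. The number of arrays limits the precision. The labels call the replicates biological.

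The members, lists and tests were chosen with earlier results of these data known. The text names every member in every comparison, Terf1 as a check, up to 4 called genes of each list with the largest difference or else up to 2 given as values, and for likeness the nearest 3 genes. Results of 2 genes that this rule would name are not reported here. Alternatives were normexp correction with an offset of 50, other scalings, the deposited values, other filters, the mean over probes, 2 groups alone, slide, sex or replicate number in the model, each array left out, and, added after seeing the data, the percentile over spots and the loss of control replicates 2 and 3.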

Additional observations from a re-analysis of the deposited data

How the results depend on the processing

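Over 639 recomputed differences of the 9 regulators, 596 kept their direction without a call, 42 changed sign and 1 became a call. That call was Sirt3 between the cre groups without 9-month cre replicate 3, and the members called in that comparison ranged from 0 to 1 as arrays were left out. The sign changes were of differences that were not called, and some were larger after the change than before. In the main fit the 9-month difference from control was -0.00 for Nrf1, -0.16 for Polg and -0.13 for Sirt1. It was -0.01 for Sod2 and 0.01 for Ppargc1b. With the slide as a block, Nrf1 was at 0.23, Polg at 0.19, Sirt1 at 0.18, Sod2 at 0.26 and Ppargc1b at -0.076 for 9-month cre against control, Nrf1 at 0.0083 and Sirt1 at 0.10 for 3-month cre against control (the same within slide 1), and Sirt1 at 0.079 between the cre groups (the same within slide 2). Without control replicates 2 and 3, Sod2 was at 0.20 and Ppargc1b at -0.071 at 9 months. Ppargc1b at 9 months was also at -0.044 with median scaling, -0.012 with the percentile of probes detected on all arrays, -0.0077 with that over spots and -0.035 as a mean over probes, and Nrf1 was at 0.013 with normexp and 0.061 with sex as a covariate. In the comparison of the cre groups, Ppargc1a was at -0.024 with median scaling and -0.15 as a mean over probes, Ppargc1b at -0.034 as a mean over probes, and Sirt1 at 0.00036 with quantile normalization, 0.00092 in the deposited values and 0.0070 as a mean over probes. With arrays left out in turn, the 9-month difference from control ranged from -0.063 to 0.044 for Nrf1, -0.083 to 0.11 for Ppargc1b, -0.23 to 0.0026 for Sirt1, -0.075 to 0.31 for Sirt3 and -0.12 to 0.098 for Sod2, and that between the cre groups from -0.17 to 0.30 for Ppargc1a and -0.11 to 0.11 for Sirt1. The causes were not tested.

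Calls over all genes depended on the processing. For 9-month cre against control the 1087 calls became 489 without a filter on dim probes, 185 with 2 groups alone, 0 with slide or sex in the model (837 and 3711 at an unadjusted p under 0.05 in limma), 1 without control replicates 2 and 3, and 158 to 1638 with an array left out. The share of higher calls, 56.5%, was 46.0% in the deposited values (554 higher and 651 lower, against 614 and 473). For 3-month cre against control the 76 calls became 49 with normexp, 43 in the deposited values, 14 without a filter, 45 for probes detected on all 9 arrays, 389 with 2 groups alone, 0 with slide or sex (1144 and 2191 unadjusted), 3 without control replicates 2 and 3, and 1 to 322 with an array left out. For 9-month against 3-month cre the 840 calls became 427 with median scaling, 104 without a filter, 335 with 2 groups alone or without control replicates 2 and 3, 0 with slide (3589 unadjusted), 234 with sex, and 0 to 1224 with an array left out. Of the pathway genes, the 9 calls at 9 months became 4 without a filter, 1 with 2 groups alone, 0 with slide, sex or without control replicates 2 and 3, and 1 to 17 with an array left out. The 2 at 3 months became 0 without a filter, with slide, with sex or without those controls, and 0 to 2 with an array left out. The 7 between the cre groups became 11 with normexp, 2 with median scaling or sex, 12 as a mean over probes, 0 without a filter, with 2 groups alone, with slide or without those controls, and 0 to 16 with an array left out. With the replicate number as a block the calls over all genes were 317, 42 and 6 in these comparisons, and those of pathway genes 2, 1 and 0. Deviations of same-numbered arrays correlated at -0.24 to 0.045 over 9 pairs, so the numbers did not pair the arrays, and the block changed no call of a regulator. The fit with 3 arrays a group, slides that divide cre from control and unequal sex limit every comparison.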
